A study of Bos indicus with 6 samples.

Results

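The enzymes and helper proteins that modify, fold and trim newly made collagen were examined in the isthmus of the cow oviduct. Rows were taken by gene symbol, and all 10 genes chosen (P4HA1, P4HA2, P4HA3, PLOD1, PLOD2, PLOD3, SERPINH1, CRTAP, PCOLCE and BMP1) were found once each among the 24616 genes listed. The 10 are called enzymes below for short, although SERPINH1, CRTAP and PCOLCE are helper proteins and not enzymes themselves. The isthmus is the segment of the oviduct next to the uterus, with a thick muscle coat, and whole-thickness tissue was sampled on the side of the corpus luteum. The samples came from 6 multiparous, non-lactating Nelore (Bos indicus) cows, with 1 RNA-seq library per cow. All cows were pre-synchronized with a prostaglandin F2α analog and a GnRH agonist, then received a progesterone device with estradiol benzoate, prostaglandin at device removal and again later, a GnRH agonist to induce ovulation, and were slaughtered on day 4. The 3 LF/LCL cows (617, 79 and 527), which were to ovulate a larger follicle and form a larger corpus luteum, also received prostaglandin when the device was inserted, and lost their device 42 h ahead of GnRH. The interval was 30 h for the 3 SF/SCL cows (856, 489215 and 97), which were to ovulate a smaller follicle and form a smaller corpus luteum. The authors took the top-ranked LF/LCL and the bottom-ranked SF/SCL animals for sequencing, so the groups are extremes of their treatments, and no untreated cows were among these libraries.

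A collagen chain is modified in the endoplasmic reticulum before it winds with its partners into a triple helix. Prolyl 4-hydroxylases and lysyl hydroxylases add hydroxyl groups that hold the helix together and prepare its later cross-links, and chaperones such as SERPINH1 and the complex that holds CRTAP accompany the folding chains. After secretion, proteinases such as BMP1 remove the end pieces of the procollagen, which lets fibrils form, and in the oviduct wall these fibrils lie mainly in the stroma and between the muscle bundles.

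The deposited values are normalized counts, that is, reads per gene divided by the size factor of the library. The libraries held 23899117 to 34193164 reads assigned to genes (median 27155932). The median SD of the log2 values over the genes tested was 0.17 within LF/LCL and 0.53 within SF/SCL, which does not by itself show which cow differs. Limma array weights are lower for libraries further from their group. The weight was 0.0477 for SF/SCL cow 489215 and 1.06 to 4.26 for the other cows, so results are given with and without cow 489215. The tissue expressed smooth muscle genes in every cow, with a summed value of 8 of them (among others MYH11, ACTA2, CNN1 and DES) of 728721 to 847464 in LF/LCL, 339479 and 399048 in SF/SCL cows 856 and 97, and 1227280 in cow 489215. Fibroblast markers (10 genes, among others DCN, LUM and PDGFRA) summed to 110536 to 145501 in LF/LCL and to 69688 to 101745 in SF/SCL, the highest of these in cow 489215. Epithelial markers (9 genes) summed to 28541 to 41705 in LF/LCL, 315370 and 376919 in SF/SCL cows 856 and 97 and 64598 in cow 489215. OVGP1, the oviduct-specific glycoprotein of the secretory epithelium, made up most of this in cows 856 and 97, with 271794 and 325158, against 287 to 1950 in LF/LCL and 730 in cow 489215. Epithelial markers without OVGP1 (8 genes) summed to 26591 to 41418 in LF/LCL and 43576 to 63868 in SF/SCL, mesothelial markers without DES (8 genes) to 2958 to 3434 in LF/LCL, 28237 and 27615 in cows 856 and 97 and 3559 in cow 489215, and none of these markers was at 0 in every library. The other lists overlapped: the ciliated list, in which PIFO was at 0 in every library, summed to 29940 to 37521 in LF/LCL and 29631 to 54567 in SF/SCL, endothelium to 15067 to 19220 and 12333 to 18832, leukocytes to 5533 to 7306 and 4885 to 8914, and erythrocytes to 15.0 to 54.4 and 13.7 to 93.2. The part of these tissue differences in the results was not tested, and in whole tissue fewer cells of a type and less RNA per cell cannot be told apart.

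Of the 10 enzymes, PLOD1 and PCOLCE were the ones whose normalized counts in the LF/LCL cows all lay above those of the SF/SCL cows, each by almost 1 on the log2 scale. PLOD3, SERPINH1, P4HA2, PLOD2, P4HA3 and BMP1 also had a higher mean in LF/LCL, but the cows of the groups overlapped. P4HA1 and CRTAP had a higher mean in SF/SCL, again with overlap. Over all 15387 genes tested, the values did not overlap for 8.6% with LF/LCL higher and for 9.51% with SF/SCL higher, so that 2 of the 10 enzymes without overlap is not far from the background.

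The difference between the groups was tested with limma on log2(value + 1) across all genes and is given as LF/LCL minus SF/SCL, so that a positive value is higher in LF/LCL. After Benjamini-Hochberg adjustment no enzyme passed 0.05, and neither did any other gene (0 of 15387, 0.0%), the smallest adjusted p-value from limma being 0.351. At an unadjusted p-value under 0.05 stood 2 of the 10 enzymes, PLOD1 and PCOLCE, against 8.66% of all genes tested in either direction and 4.48% with LF/LCL higher. On the recovered reads, edgeR also called 0 of the 10 and had 2 at an unadjusted p-value under 0.05, beside 8.58% of all genes. DESeq2 called 0 of the 10, beside 2.66% of all genes, and had 2 at an unadjusted p-value under 0.05, beside 11.5%. The median log2 difference of the 10 enzymes was 0.43 (0.26 without SF/SCL cow 97), beside 0.02 over all genes tested, and 8 of the 10 were higher in LF/LCL by sign, beside 51.4% of all genes.

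**Figure D1:**
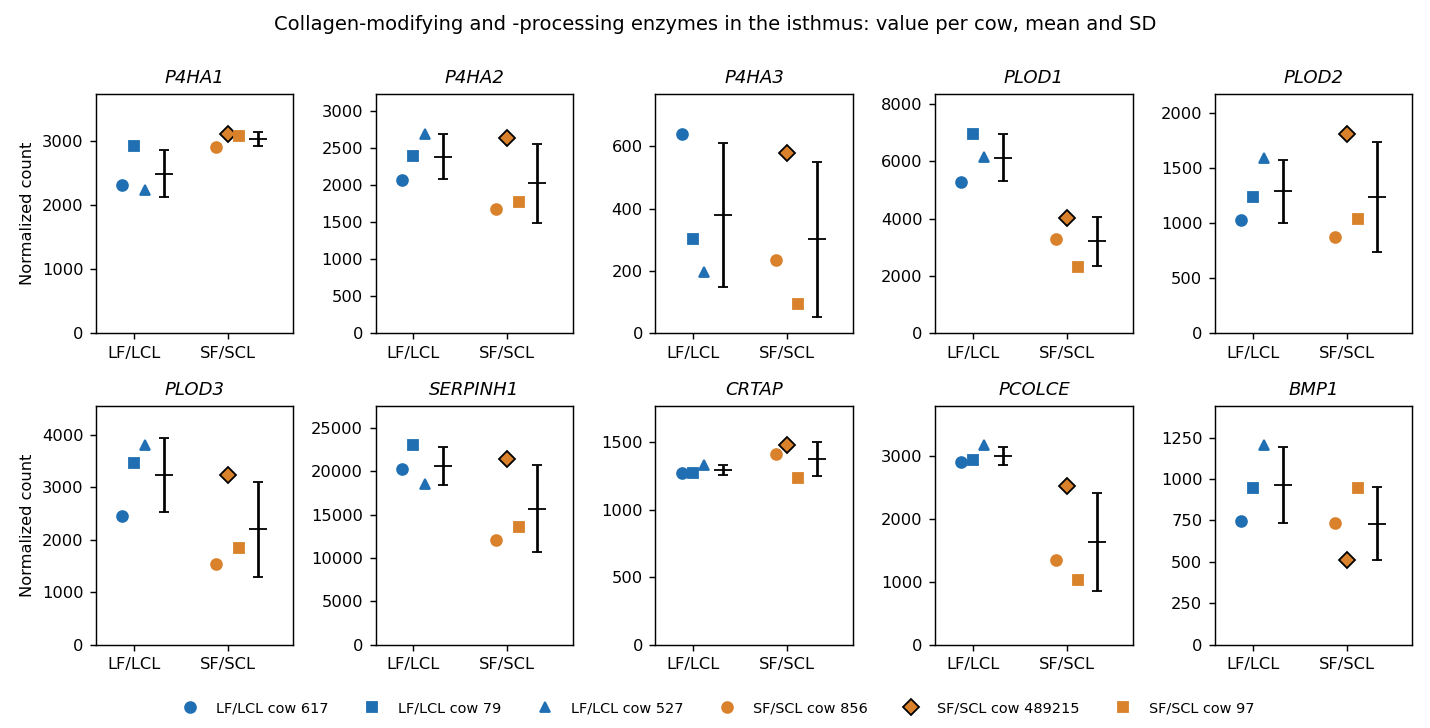
Normalized count (vertical axes, each from 0) of the 10 enzymes in each of the 6 isthmus libraries, blue for LF/LCL and orange for SF/SCL, with the group mean and SD as a bar beside the points (n = 3 each). PLOD1 and PCOLCE are the panels with LF/LCL wholly above SF/SCL. By the deposited size factors the diamond, cow 489215, lies above both other SF/SCL cows in 9 of the 10 panels, all but BMP1.

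Without cow 489215 fewer of the enzymes overlapped. That cow lay above both other SF/SCL cows for 9 of the 10 enzymes, beside 45.8% of all genes tested. Its values were within the LF/LCL range for 4 enzymes (P4HA2, P4HA3, PLOD3 and SERPINH1), above that range for 3 (P4HA1, PLOD2 and CRTAP) and below it for 3 (PLOD1, PCOLCE and BMP1). These positions rest on the deposited size factors. Cow 489215 had the smallest, 0.751, and a mean value over all genes of 1378, against 1052 to 1093 in the other cows. Scaling by library size alone would lower all its values relative to the other cows. Its positions above the LF/LCL range or above the other SF/SCL cows may therefore not hold under that scaling, which was not worked out per cow. Without this cow, the LF/LCL cows lay wholly above the remaining 2 SF/SCL cows for 5 enzymes (PLOD1, PLOD3, SERPINH1, P4HA2 and PCOLCE), beside 24.9% of all genes, and below them for 0, beside 27.1%. In the limma fit without it, 4 of the 10 passed the adjusted threshold, PLOD1, PLOD3, SERPINH1 and PCOLCE, all higher in LF/LCL, where 7.92% of all genes were called in that direction. The cow was singled out after values had been seen, and its smooth muscle marker sum was the highest. The fibroblast marker sum did not overlap between the groups with or without it.

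The lysyl hydroxylases, encoded by the PLOD genes, hydroxylate lysines of the collagen chain. PLOD1 (ENSBTAG00000002052) acts on lysines within the helix, and its normalized counts were 5288, 6950 and 6157 in LF/LCL cows 617, 79 and 527. In SF/SCL cows 856, 489215 and 97 they were 3277, 4035 and 2325. All 3 LF/LCL values lay above the SF/SCL values, and cow 489215 was the highest of its group but still below the lowest LF/LCL cow. The means were 6132 ± 832 and 3212 ± 857 (SD, n = 3 each), 1.94-fold higher in LF/LCL on the log scale, with a log2 difference of 0.96 (standard error 0.25, 95% interval 0.37 to 1.55). The unadjusted p-value of PLOD1 was 0.00701 and the adjusted one 0.405 from limma, 0.386 from edgeR and 0.0515 from DESeq2. Without cow 489215 the difference was 1.14 (adjusted p = 0.0101 from limma). Leaving out SF/SCL cow 97 in its place gave 0.74 (adjusted p = 0.699 from limma).

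PLOD3 (ENSBTAG00000000342), which besides lysine hydroxylation also adds sugars to hydroxylysine, had 2446, 3462 and 3801 in LF/LCL cows 617, 79 and 527. Its SF/SCL values were 1536, 3235 and 1837 in cows 856, 489215 and 97. Cow 489215 thus stood among the LF/LCL cows, and the other SF/SCL cows below all of them. The log2 difference was 0.61 (standard error 0.33, 95% interval -0.18 to 1.39, adjusted p = 0.690 from limma), and 0.92 without cow 489215 (adjusted p = 0.0256 from limma) but 0.38 without SF/SCL cow 856 (adjusted p = 0.727 from limma).

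PLOD2 (ENSBTAG00000007331), known for hydroxylating the non-helical ends where stable cross-links start, had 1033, 1243 and 1598 in LF/LCL and 876, 1812 and 1043 in SF/SCL cows 856, 489215 and 97. The groups were interleaved, with cow 489215 the highest of all 6 by the deposited size factors. The log2 difference of 0.10 had a 95% interval of -0.68 to 0.88 (adjusted p = 0.953 from limma). A doubling in either direction, a log2 difference of 1, lay outside that interval. Leaving out LF/LCL cow 527 or SF/SCL cow 856 turned its sign, to -0.06 and -0.11.

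The prolyl 4-hydroxylases put hydroxyl groups on prolines, without which the helix melts at body temperature, and their catalytic α subunits are encoded by the P4HA genes. P4HA1 (ENSBTAG00000032996), the main α subunit of most cells, had 2307, 2909 and 2237 in LF/LCL cows 617, 79 and 527 and 2893, 3101 and 3068 in SF/SCL cows 856, 489215 and 97. The SF/SCL cows were close together, and LF/LCL cow 79 reached the lowest of them while the other LF/LCL cows lay under them. The means were 2484 ± 369 and 3021 ± 112 (SD, n = 3 each), a log2 difference of -0.29 (95% interval -0.70 to 0.12, adjusted p = 0.733 from limma), and cow 489215 mattered little, the difference being -0.27 without it.

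P4HA2 (ENSBTAG00000001116), the α subunit prominent in cells that lay down matrix, had 2069, 2390 and 2684 in LF/LCL and 1671, 2635 and 1764 in SF/SCL cows 856, 489215 and 97. The value of cow 489215 was close to the highest LF/LCL value, and the other SF/SCL cows lay below all LF/LCL cows. The log2 difference was 0.26 (95% interval -0.30 to 0.82, adjusted p = 0.845 from limma), and 0.46 without cow 489215, where its adjusted p-value from limma was 0.0502. It was 0.17 without LF/LCL cow 527, 0.13 without SF/SCL cow 856 and 0.17 without SF/SCL cow 97.

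P4HA3 (ENSBTAG00000006579), a further α subunit, varied most between cows of a group. It had 639.5, 301 and 196 in LF/LCL cows 617, 79 and 527, and 235, 578 and 94.3 in SF/SCL cows 856, 489215 and 97. Cows 617 and 489215, from different groups, were the high ones. The SD of its log2 values was 0.86 within LF/LCL and 1.3 within SF/SCL, against medians of 0.20 and 0.44 over the 10 enzymes, and with as few as 87 reads in a library it was also the least covered. The log2 difference of 0.52 had a 95% interval of -1.26 to 2.29 and was -0.14 without SF/SCL cow 97 and 1.16 without cow 489215. In the RefSeq annotation of a Bos indicus assembly (NIAB-ARS_B.indTharparkar_mat_pri_1.0), which is not the assembly the reads were aligned to, P4HA3 overlaps PPME1 and P4HA2 overlaps PDLIM4, and since no strand setting is stated for the counting, reads of the overlap cannot be assigned with certainty.

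SERPINH1 (ENSBTAG00000001027), also called HSP47, is a chaperone of the endoplasmic reticulum that binds folded procollagen. Its normalized counts were 20243, 23009 and 18599 in LF/LCL cows 617, 79 and 527 and 12065, 21407 and 13605 in SF/SCL cows 856, 489215 and 97. As with PLOD3 and P4HA2, cow 489215 was within the LF/LCL range and the other SF/SCL cows below it. The means were 20617 ± 2229 and 15692 ± 5009 (SD, n = 3 each), with a log2 difference of 0.43 (standard error 0.27, 95% interval -0.21 to 1.07, adjusted p = 0.745 from limma). Without cow 489215 it was 0.68, or 1.60-fold (adjusted p = 0.0138 from limma), and without SF/SCL cow 856 it was 0.27 (adjusted p = 0.759 from limma).

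CRTAP (ENSBTAG00000021442), the cartilage-associated protein that forms the prolyl 3-hydroxylation complex with P3H1 and cyclophilin B, had the smallest pooled SD of the 10 on the log2 scale. It had 1273, 1269 and 1335 in LF/LCL and 1414, 1478 and 1239 in SF/SCL cows 856, 489215 and 97. All 6 cows lay between 1239 and 1478. The log2 difference was -0.09 with a 95% interval of -0.49 to 0.31 (adjusted p = 0.916 from limma), and it changed sign, to 0.00184, when the reads were scaled by library size alone.

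Outside the cell, PCOLCE (ENSBTAG00000020528), the procollagen C-proteinase enhancer, binds the end piece of fibrillar procollagens and speeds its removal by BMP1. It had 2901, 2928 and 3162 in LF/LCL cows 617, 79 and 527 and 1344, 2511 and 1026 in SF/SCL cows 856, 489215 and 97. The LF/LCL cows were tightly grouped above all SF/SCL cows, and cow 489215 lay nearer to them than to its own group. The means were 2997 ± 144 and 1627 ± 782 (SD, n = 3 each), 1.98-fold higher in LF/LCL on the log scale, with a log2 difference of 0.98 (standard error 0.33, 95% interval 0.18 to 1.79). For PCOLCE the unadjusted p-value was 0.0233 and the adjusted one 0.477 from limma, 0.510 from edgeR and 0.277 from DESeq2. Without cow 489215 the log2 difference was 1.35 (adjusted p = 0.00283 from limma), the largest among the enzymes in that fit. Leaving out SF/SCL cow 97 in its place gave 0.70 (adjusted p = 0.732 from limma).

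BMP1 (ENSBTAG00000000917) is the proteinase itself, and gene-level counts do not separate its short form from the longer mammalian tolloid form. It had 747, 948 and 1204 in LF/LCL cows 617, 79 and 527 and 733, 511 and 948 in SF/SCL cows 856, 489215 and 97. The groups overlapped, and by the deposited size factors this was the enzyme for which cow 489215 was lowest rather than high. The log2 difference was 0.42 (95% interval -0.31 to 1.15, adjusted p = 0.796 from limma), and 0.19 without cow 489215, 0.25 without LF/LCL cow 527 and 0.63 without SF/SCL cow 97.

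**Figure D2:**
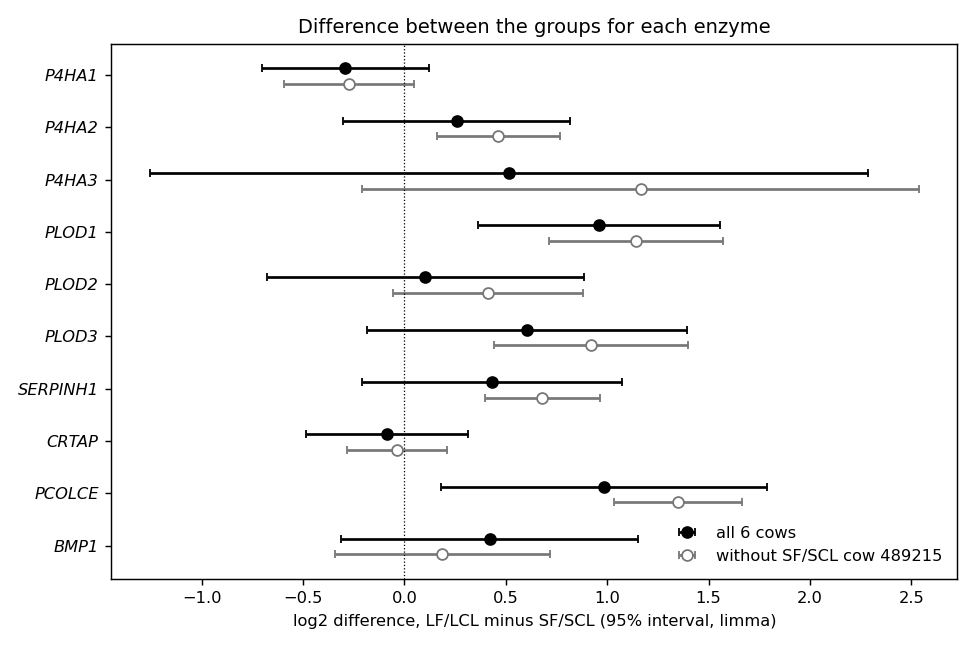
Log2 difference between LF/LCL and SF/SCL (horizontal axis, LF/LCL minus SF/SCL) with its 95% interval from limma for each enzyme, filled with all 6 cows and open without SF/SCL cow 489215. With all cows the intervals of PLOD1 and PCOLCE exclude 0, and without that cow those of P4HA2, PLOD3 and SERPINH1 do so as well, before adjustment over genes.

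The make-up of the hydroxylase families and the ratio of enzymes to collagens were compared within libraries, where the size factor cancels. Shares and ratios use reads that were not corrected for transcript length, so they are compared between cows and not between genes. In all, 18 such quantities were tested with a two-sided exact permutation test that divides the 6 cows in every way, for which 0.1 is the smallest p-value possible, and the smallest after Benjamini-Hochberg adjustment over the 18 was 0.225.

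PLOD2 made up 11.8%, 10.7% and 13.8% of the summed PLOD values in LF/LCL cows 617, 79 and 527. Its share was 15.4%, 20.0% and 20.0% in SF/SCL cows 856, 489215 and 97. The groups did not overlap, with means of 12.1% ± 1.60 and 18.5% ± 2.65 (SD, n = 3 each, exact permutation p = 0.1, adjusted p = 0.225). PLOD1 held 57.7% ± 3.88 and 48.9% ± 7.54 and PLOD3 30.2% ± 2.53 and 32.6% ± 4.89 (SD, n = 3 each), both with overlap (exact permutation p = 0.2 and p = 0.5). PLOD2 was thus a larger part of the summed PLOD counts in every SF/SCL cow. Its own normalized counts overlapped between the groups, as given above. PLOD1, the largest part of that sum, had higher normalized counts in LF/LCL without overlap, so the PLOD2 share partly restates PLOD1. How many of all genes would show such a share without overlap was not worked out.

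Among the prolyl 4-hydroxylases, P4HA1 made up 47.2% ± 4.25 of the summed P4HA values in LF/LCL and 57.2% ± 7.09 in SF/SCL, and P4HA2 45.5% ± 6.10 and 37.5% ± 3.74 (SD, n = 3 each, exact permutation p = 0.2 for both). P4HA1 held 60.3% and 62.3% in SF/SCL cows 856 and 97 and 49.1% in cow 489215, which was within the LF/LCL range of 43.7% to 51.9%. P4HA3 held 3.83% to 12.8% in LF/LCL and 1.91% to 9.15% in SF/SCL. The log2 ratio of summed P4HA to summed PLOD values was -1.01 ± 0.19 in LF/LCL and -0.28 ± 0.23 in SF/SCL (SD, n = 3 each) and did not overlap (exact permutation p = 0.1, adjusted p = 0.225). With means of log2 values in place of sums, the difference was -0.40 in place of -0.73 and the groups overlapped (exact permutation p = 0.3). For this ratio, too, no background over all genes was worked out.

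**Figure D3:**
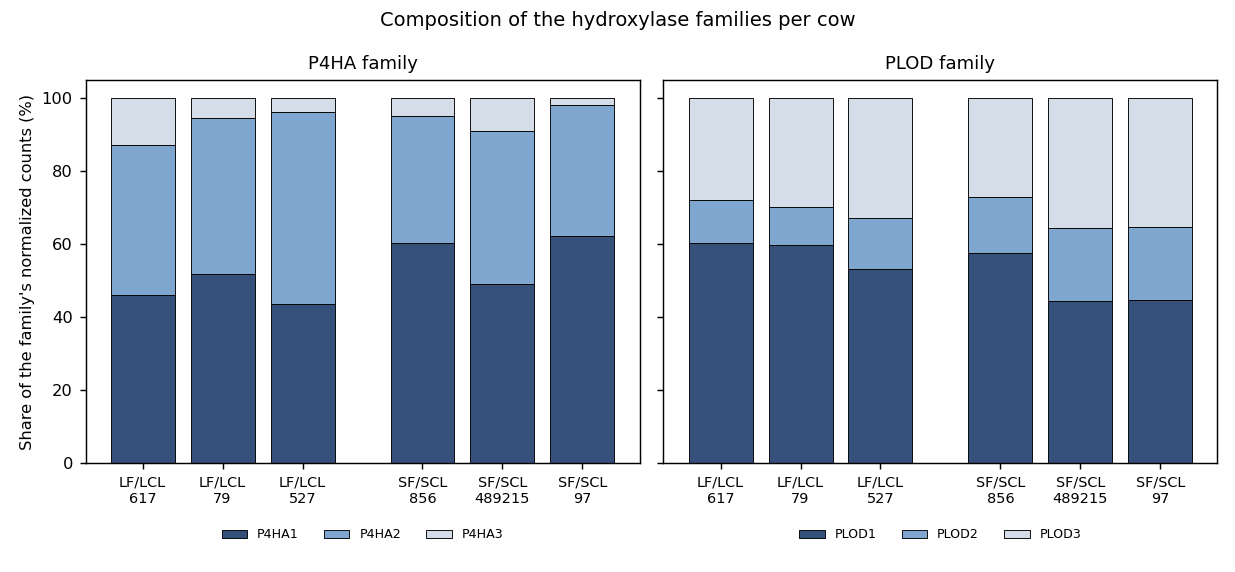
Share (vertical axis, percent, stacked from 0) of each gene in the summed normalized counts of the P4HA family (left) and the PLOD family (right) in each of the 6 cows, not corrected for transcript length. The PLOD2 band spans 10.7% to 13.8% in the LF/LCL cows and 15.4% to 20.0% in the SF/SCL cows.

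The fibrillar collagens are what these proteins modify, accompany in folding or help to trim. Of 11 fixed collagen genes, 10 were matched and tested, and 9 had a higher mean in LF/LCL. From limma 6 had an unadjusted p-value under 0.05, beside 8.66% of all genes in either direction, and 0 an adjusted one. DESeq2 called 4 after adjustment with LF/LCL higher (COL1A1, COL3A1, COL5A2 and COL5A3), beside 2.66% of all genes in either direction. The median log2 difference of the 10 collagen genes was 1.08, against 0.43 for the 10 enzymes and 0.02 for all genes tested. Their values summed to 327357, 418152 and 387526 in LF/LCL cows 617, 79 and 527 and to 153746, 221295 and 165198 in SF/SCL cows 856, 489215 and 97. These are 1.22% to 1.55% of all values in the LF/LCL libraries and 0.592% to 0.653% in the SF/SCL libraries, cow 489215 included, without overlap. COL1A1 and COL1A2, the chains of type I collagen, had log2 differences of 1.14 and 1.10, and COL3A1, the chain of type III collagen, had normalized counts of 155148 ± 20389 and 73927 ± 6829 (SD, n = 3 each).

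Relative to that sum, all 10 enzymes had a higher mean in SF/SCL, and for 6 of them the groups did not overlap (P4HA1, P4HA2, PLOD2, PLOD3, SERPINH1 and CRTAP, exact permutation p = 0.1 and adjusted p = 0.225 for each). The same ratio was higher in SF/SCL without overlap for 57.8% of all genes tested, so that 6 of 10 is at the background and is no result about the enzymes. All 10 ratios share the collagen sum as denominator, which itself differed without overlap. With the mean log2 value of the collagens as denominator, 4 enzymes (P4HA1, P4HA2, PLOD2 and CRTAP) did not overlap, beside 50.5% of all genes, and PLOD3 and SERPINH1 did (-0.30 and -0.47, exact permutation p = 0.3 and p = 0.2). The log2 ratio of SERPINH1 to the collagens was -4.02, -4.18 and -4.38 in LF/LCL cows 617, 79 and 527, and -3.67, -3.37 and -3.60 in SF/SCL cows 856, 489215 and 97. Cow 489215, with SERPINH1 at the LF/LCL level but collagens nearer to its own group, had the highest ratio. The difference in means, LF/LCL minus SF/SCL, was -0.65 for SERPINH1, -0.82 for P4HA2, -0.47 for PLOD3, -0.98 for PLOD2, -1.17 for CRTAP and -1.37 for P4HA1.

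For PLOD1 and PCOLCE the ratios to the collagens were the nearest between the groups. The log2 ratio of PLOD1 to the collagen sum was -5.95 ± 0.03 in LF/LCL and -5.83 ± 0.30 in SF/SCL (SD, n = 3 each, exact permutation p = 0.7), and that of PCOLCE -6.97 ± 0.17 and -6.88 ± 0.44 (SD, n = 3 each, exact permutation p = 0.9). The sign of these small differences depended on the setting: without SF/SCL cow 489215 the PCOLCE ratio was higher in LF/LCL, by 0.11, and without SF/SCL cow 856 the PLOD1 ratio was higher in LF/LCL, by 0.02. BMP1 per collagen was -8.63 ± 0.26 and -7.97 ± 0.69 (SD, n = 3 each, exact permutation p = 0.2), and P4HA3 per collagen ran from -10.95 to -9.00 in LF/LCL and from -10.77 to -8.58 in SF/SCL. The log2 ratio of BMP1 to its enhancer PCOLCE was -1.96, -1.63 and -1.39 in LF/LCL and -0.87, -2.30 and -0.11 in SF/SCL cows 856, 489215 and 97 (exact permutation p = 0.5), so that cow 489215 was the lowest and the other SF/SCL cows the highest of all.

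**Figure D4:**
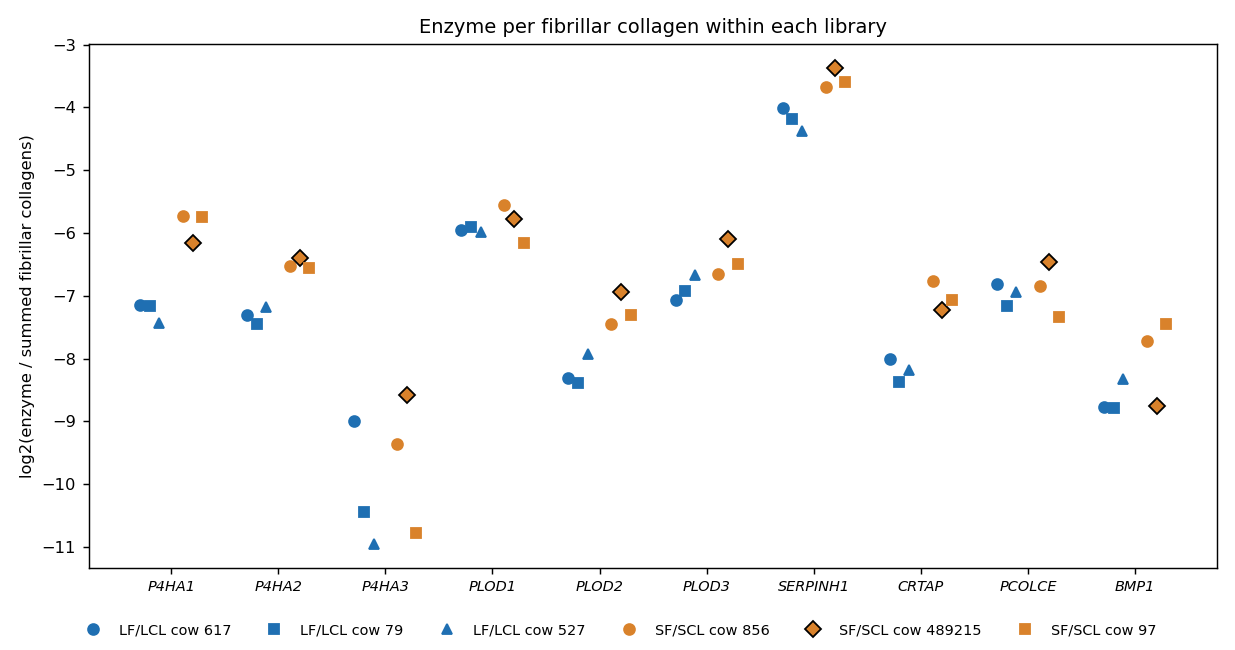
Log2 ratio of each enzyme to the summed values of 10 fibrillar collagen genes in each library (vertical axis), blue for LF/LCL and orange for SF/SCL. The SF/SCL points lie above the LF/LCL points without overlap for 6 enzymes, beside 57.8% of all genes tested, while those of PLOD1 and PCOLCE are interleaved; heights are not comparable between genes because transcript length is not corrected.

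Other genes of the same pathway, the partners, were taken from a fixed list of 22 genes, all found under their own or an older symbol, of which 20 passed the filter. In this list 16 were higher in LF/LCL by sign, the median log2 difference was 0.41, 4 had an unadjusted p-value under 0.05, all higher in LF/LCL, and 0 an adjusted one from limma, while DESeq2 called 2 after adjustment with LF/LCL higher, FKBP10 and ADAMTS2. The 4 were ADAMTS2 (1.18), FKBP10 (1.05), SERPINF1 (0.91) and P3H1 (0.55), listed here with their log2 differences. FKBP10 encodes a prolyl isomerase of the endoplasmic reticulum that works with lysyl hydroxylation, and its normalized counts were 1390 ± 165 in LF/LCL and 670 ± 90.6 in SF/SCL (SD, n = 3 each) without overlap (adjusted p = 0.367 from limma and 0.000546 from DESeq2). ADAMTS2, which trims the other end of procollagen, had 1438 ± 291 and 626 ± 67.5 (SD, n = 3 each), also without overlap (adjusted p = 0.367 from limma and 0.000702 from DESeq2). ADAMTS3 and ADAMTS14, also in the list, differed by -0.35 and 0.28, with overlap. Without cow 489215 they differed by -1.34 and -0.83, higher in SF/SCL without overlap (adjusted p = 0.0661 and 0.0516 from limma).

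For the partners that form complexes with the enzymes described, the groups mostly overlapped. P4HB, the common β subunit of prolyl 4-hydroxylase, had 23214 ± 548 in LF/LCL and 22573 ± 10311 in SF/SCL (SD, n = 3 each), a log2 difference of 0.13, and 0.48 without cow 489215 (adjusted p = 0.0369 from limma). P3H1 had 1257 ± 101 and 870 ± 176 (SD, n = 3 each) without overlap (adjusted p = 0.534 from limma), while PPIB, the cyclophilin B of the same complex, differed by 0.02, and by 0.47 without cow 489215 (adjusted p = 0.0472 from limma), and CRTAP, as given above, by -0.09. COLGALT1, which adds galactose to hydroxylysine, differed by 0.44, and the relatives of BMP1, TLL1 and TLL2, had low normalized counts, with means of 73.2 and 21.7 in LF/LCL and 44.0 and 17.9 in SF/SCL. PCOLCE2, the second enhancer, went the other way from PCOLCE, with 446 ± 191 in LF/LCL and 581 ± 101 in SF/SCL (SD, n = 3 each, adjusted p = 0.832 from limma). Without cow 489215, 11 partners passed the adjusted threshold in limma with LF/LCL higher and 1, P3H3, with SF/SCL higher, and the median was 0.70. Of the 15310 genes tested both with and without that cow, 1210 passed with LF/LCL higher and 1561 with SF/SCL higher.

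BMP1 also cuts proteins other than collagens, and 9 of 12 fixed substrates were tested. Of these, 8 were higher in LF/LCL by sign, with a median log2 difference of 0.94, and 4 had an unadjusted p-value under 0.05 and 0 an adjusted one from limma, with 3 called by DESeq2. With all cows the largest differences were those of GDF11 (1.26, and 0.54 without cow 489215) and FN1, fibronectin (1.22, and 1.5 without it), and that of BGN, biglycan, was among the smallest (0.31). The genes of cross-linking and fibril assembly (9 of 9 tested, LOX and LOXL1 in common with the substrates) had a median of 0.63. The largest differences were LOX (1.10) and LUM, lumican (1.00), and the smallest LOXL4 (-0.21) and TGM2 (0.16). At an unadjusted p-value under 0.05 from limma stood 2, and DESeq2 called 2 of the 9 with LF/LCL higher. For the substrates and this list alike, the shares over all genes were 8.66% (limma, unadjusted) and 2.66% (DESeq2, adjusted), both in either direction.

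P4HA1, P4HA2, PLOD1 and PLOD2 are known targets of the hypoxia response. The 16 other hypoxia genes tested, of 18 fixed, had a median log2 difference of -0.05, with a positive log2 difference for 6 and a negative one for 10, and 0 at an unadjusted p-value under 0.05 from limma. With all cows their largest differences were NDRG1 (0.41) and PDK1 (0.31), and the smallest HK2 (-0.66) and SLC2A1 (-0.51), while without cow 489215 these were 0.66, -0.08, -1.64 and -0.30. General chaperones of the endoplasmic reticulum (10 of 12 fixed genes tested), among which SERPINH1 and P4HB work, had a median of -0.03 and 0 at an unadjusted p-value under 0.05 from limma, HYOU1 (0.46) and CALR (0.13) being the largest and PDIA6 (-0.25) and CRELD2 (-0.22) the smallest, against 0.03, 0.46, 0.07 and 0.16 without cow 489215. Without cow 489215 the medians of the hypoxia list with its 4 enzymes and of the chaperones were -0.03 and 0.23.

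**Figure D5:**
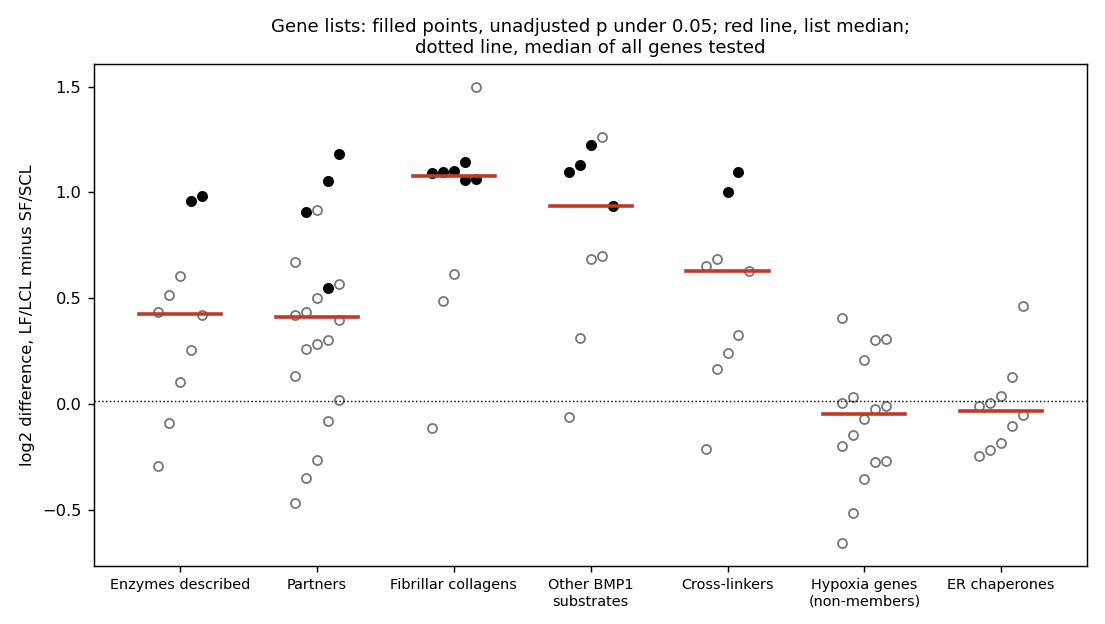
Log2 difference between the groups (vertical axis, LF/LCL minus SF/SCL) of each tested gene of the 10 enzymes and 6 fixed lists, filled where the unadjusted p-value from limma was under 0.05, with the list median in red and the median of all genes tested, 0.02, dotted. The medians are 1.08 for the fibrillar collagens, 0.43 for the enzymes and 0.41 for the partners, and -0.05 and -0.03 for the hypoxia genes and the chaperones.

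The mean profile of the 10 enzymes, each centred on the log2 scale, was 0.13, 0.24 and 0.21 in LF/LCL cows 617, 79 and 527 and -0.35, 0.23 and -0.46 in SF/SCL cows 856, 489215 and 97. By the deposited size factors cow 489215 was thus as high as the LF/LCL cows, and the profile with scaling by library size alone was not worked out. P4HA2 and SERPINH1 followed this profile most closely, at root mean square distances of 0.12 and 0.13 over the 6 libraries, and P4HA3 and BMP1 least, at 0.77 and 0.50, where the median gene was at 0.48. Each of the 10 is itself part of the mean profile, so its distance is not on equal terms with that of other genes. Among members, the closest pair was P4HA2 with PLOD2 (0.16), and PLOD1 was closest to PCOLCE (0.22). The genes outside the set with the smallest distances were PPAP2A (0.05), OPTN (0.06), XRCC3 (0.06), POR (0.07) and CHST7 (0.07), and the 6 libraries share 1 feature above all, the position of cow 489215, so this likeness is a description only.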

How the data were processed

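Isthmus RNA of 6 cows (3 per group) was sequenced from polyadenylated RNA as paired ends. After quality filtering with seqyClean, the authors used TopHat2 2.0.8 and Bowtie2 2.1.0 for alignment to bovine UMD 3.1 and HTSeq for counting (versions from the submitters' processing notes). The deposited signal is the count of each gene after division by a DESeq 1.12.1 size factor. Within a tolerance of 0.02 reads, 100% of the 147696 values were whole multiples of 1 step per library, which gave the reads back (23899117 to 34193164 per library). The filter kept the 15387 genes, all 10 enzymes included, whose mean exceeded both 5 and the SD, and these were tested with limma 3.58.1 in R 4.3.3 on log2(value + 1), Benjamini-Hochberg adjusted. The pseudocount of 1 understates differences of low genes. Alternatives were edgeR 4.0.16 and DESeq2 1.42.0 on the reads, other filters, pseudocounts and scalings, and leaving out each cow. The fits were also run on simulated data without an outlying cow, and the outcome is not given here. Ratios used exact permutation tests (scipy 1.17.1). The named genes were the 10 enzymes, the tested partners and fibrillar collagens, the 2 largest and 2 smallest differences of the other lists (1 of them is not reported here), and the 5 genes nearest to the mean profile. The enzymes and lists were chosen with earlier results of these data known. Lists were matched by symbol, and genes without a match were not used here. Gene positions served only to find overlapping genes, in RefSeq of another assembly, and sequences were not used here.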

Additional observations from a re-analysis of the deposited data

How the results depend on the processing

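Of the 160 alternative values for the log2 differences of the 10 enzymes, 145 kept their direction and side of the threshold, 10 newly passed it (4 enzymes without SF/SCL cow 489215 and 6 with limma array weights) and 5 turned sign, none of them with an adjusted p-value under 0.05. Those were CRTAP scaled by library size alone (0.00184) and with array weights (0.0119), P4HA3 (-0.14 to 1.16 when each cow was left out) and PLOD2 (-0.11 to 0.41). Limma with array weights (0.0477 for cow 489215) called 4581 genes and 6 enzymes, DESeq2 called 409 genes, and leaving out each cow gave 0 to 2827 genes and 0 to 4 enzymes, the highest counts being those without cow 489215. Enzymes without overlap numbered 2 to 5, with 5 without cow 489215 and 4 without SF/SCL cow 97, where 52.0% and 24.9% of all genes did not overlap (18.1% with all cows, alternatives chosen after seeing the data). Leaving out each cow, the median was 0.26 to 0.57 for the enzymes and 0.26 to 0.70 for the partners. It was 0.82 to 1.07 for the BMP1 substrates (0.70 without a filter) and -0.19 to -0.00801 for the hypoxia list with its 4 enzymes. With means of log2 values in place of sums, which puts shares on the log2 scale, the differences for the PLOD3 share (0.0495) and for the ratios of PLOD1 (0.0546) and PCOLCE (0.0794) to the collagens turned sign, and the ratios of PLOD3 and SERPINH1 to the collagens and of P4HA to PLOD came to overlap (the cause was not tested). Leaving out each cow, with sums, the differences ran from -0.28 to 0.0178 for the PLOD1 ratio, from -0.32 to 0.11 for the PCOLCE ratio and from -0.72 to 3.91 percentage points for the P4HA3 share. No paired analysis was possible because the cow numbers are not shared between the groups. Each fit without a cow leaves 2 cows in its group.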
